A study of Mus musculus with 6 samples.

Results

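The genes described here are 9 markers of B cells and plasma cells, Ms4a1, Cd79a, Cd79b, Cd22, Jchain, Mzb1, Xbp1, Sdc1 and Tnfrsf17, out of 21720 gene symbols in the deposited table. They were chosen by symbol as parts of the B-cell receptor and its surface partners (4 genes) or as plasma-cell genes (5 genes), and all 9 were found in the table. The libraries came from subcutaneous tumours of H22, a mouse hepatocellular carcinoma cell line, grown in BALB/c mice that were female and 6 to 8 weeks old. The control group was given 0.5% carboxymethyl cellulose sodium, the vehicle, and the other group 200 mg/kg luteolin, a plant flavonoid, once a day by gavage for 21 days in 0.2 mL, starting at a tumour volume near 50 mm3. Each group gave 3 libraries of whole tumour, in which tumour cells and host cells are mixed. The genotype is given as WT for both groups. The sources do not say whether each library is a separate mouse, so the p values measure only the spread between these libraries.

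A B cell senses antigen through membrane immunoglobulin paired with Cd79a and Cd79b, whose cytoplasmic tails pass the signal to the kinases Lyn, Syk and Btk. Cd22 is a lectin that dampens this signal, and Ms4a1 encodes CD20, a membrane protein of mature B cells. After activation a B cell can become a plasma cell, which enlarges its endoplasmic reticulum and secretes antibody. Xbp1 drives that enlargement, Mzb1 is a chaperone of the reticulum that helps immunoglobulin fold, and Jchain encodes the joining chain of polymeric IgM and IgA. Sdc1 encodes syndecan-1, or CD138, a proteoglycan of plasma cells that epithelia also carry, and Tnfrsf17 encodes BCMA, a survival receptor of plasma cells.

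Total counts ranged from 61081637 to 80442954 per library, and 14963 genes passed the filter on low counts. Values are given as CPM, counts per 1000000 of the normalized library total, in the order of replicates 1, 2 and 3 of a group, and 1 unit of the deposited counts need not be 1 read pair. Luteolin replicate 2 stood apart from the other libraries. It had the most genes detected (16767, against 15579 to 16012 in the others). The skin keratinocyte markers took 1.04% of its counts, against 0.0429% in luteolin replicate 1 and 0.00238% or less in each other library. Most counts of called genes are therefore also given without luteolin replicate 2. Leaving it out did not remove these markers. All 10 tested without it had an unadjusted p under 0.05 in edgeR and rose over 2-fold, with a median log2 fold change of 10.73. Of the hepatoma markers, Afp had 59.4, 66.7 and 43.4 CPM in the control libraries and 32.7, 41.8 and 38.8 CPM in the luteolin libraries, so every luteolin library lay below every control (log2 fold change -0.58, unadjusted p = 0.0269 and adjusted p = 0.187 in edgeR), short of the study's fold change. Alb ranged from 0.868 to 133 CPM, and 1 of the 8 hepatocyte and hepatoma markers that passed the filter, Gpc3, rose. In a whole tumour, more cells of a type and more RNA per cell cannot be told apart.

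Promoter sequences from RefSeq (GRCm38.p6) were found for 6 of the 9 genes, Cd79a, Cd22, Jchain, Xbp1, Sdc1 and Tnfrsf17. In GENCODE M21 (GRCm38), Cd79a lies at chr7:24897381-24902197 on the plus strand, Jchain at chr5:88519809-88527891 on the minus strand and Sdc1 at chr12:8771323-8793715 on the plus strand. The sequences of Cd79a, Jchain and Sdc1 are shown because these are the called genes with an entry. Each runs from 250 bases before to 50 bases after the start annotated in RefSeq, which differs from the GENCODE start. For Cd79a and Sdc1 the GENCODE start lies within the window, before the RefSeq start. Capitals mark matches, on either strand, to 6 motifs that were chosen after the sequences had been seen. These were the E-box CAGGTG, the ETS-type site AGGAAGTG, the octamer ATTTGCAT, the Sp1-type box GGGCGG, the TATA box TATAAA and the endoplasmic reticulum stress element (CCAAT and CCACG with 9 free bases between), none of whose marked matches overlap.
Cd79a, chr7:24897247-24897546, plus strand: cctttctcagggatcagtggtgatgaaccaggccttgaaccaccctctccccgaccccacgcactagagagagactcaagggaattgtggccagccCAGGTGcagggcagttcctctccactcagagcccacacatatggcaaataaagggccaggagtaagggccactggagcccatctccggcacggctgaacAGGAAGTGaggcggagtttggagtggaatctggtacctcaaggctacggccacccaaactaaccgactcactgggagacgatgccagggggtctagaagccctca
Jchain, chr5:88527848-88528147, minus strand: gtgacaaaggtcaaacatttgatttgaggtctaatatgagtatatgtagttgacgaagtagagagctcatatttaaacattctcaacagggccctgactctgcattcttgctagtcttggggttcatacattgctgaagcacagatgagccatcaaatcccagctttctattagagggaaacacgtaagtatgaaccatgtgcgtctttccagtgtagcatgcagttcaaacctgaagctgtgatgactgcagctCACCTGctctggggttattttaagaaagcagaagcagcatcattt
Sdc1, chr12:8771146-8771445, plus strand: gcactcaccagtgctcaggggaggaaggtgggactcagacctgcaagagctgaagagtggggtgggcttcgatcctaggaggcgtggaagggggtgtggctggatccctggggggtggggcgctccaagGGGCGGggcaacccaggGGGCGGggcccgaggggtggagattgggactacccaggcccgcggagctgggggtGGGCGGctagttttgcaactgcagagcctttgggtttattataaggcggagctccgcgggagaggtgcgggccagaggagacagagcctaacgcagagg
The Cd79a window holds 1 E-box, at bases 97 to 102, and 1 ETS-type site, at bases 196 to 203. The E-box was found in 20.2% and the ETS-type site in 4.07% of 32851 mouse promoter windows of this length. The Jchain window holds 1 E-box, at bases 256 to 261, just past the start. The Sdc1 window holds 3 Sp1-type boxes, a motif found in 35.7% of all windows. GC content was 58.3% in the Cd79a window, 42.3% in the Jchain window and 66.3% in the Sdc1 window, where the median of all windows was 52.7%. The octamer (1.74% of all windows) and the stress element (0.119%) were found in 0 of the 6 windows. These matches describe the sequence, and no binding was measured.

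To ask whether transcripts of B cells and plasma cells differed between the groups, the counts were compared with edgeR's quasi-likelihood test over all genes. Of the 9 genes, 8 passed the filter on low counts and Tnfrsf17 did not. The study called a gene at an unadjusted p under 0.05 and a change of over 2-fold, and at this threshold 5 of the 8 rose in the luteolin group and 0 fell. Over all genes tested 11.3% rose and 1.52% fell at that threshold. All 8 had a log2 fold change above 0, as did 49.3% of all genes tested. The genes that rose were Mzb1, Cd79b, Jchain, Cd79a and Sdc1. At an adjusted p under 0.05 in edgeR, 0 of the 8 were called, and over all genes 1.34% were higher. An unadjusted p under 0.05 was reached by 5 of the 8 and by 20.5% of all genes. At that adjusted level DESeq2 called 4 of the genes higher, Cd79b, Jchain, Mzb1 and Sdc1. Over all genes it called 1543 of 17478 higher. The voom fit of limma with sample quality weights called 4 higher, Ms4a1, Jchain, Mzb1 and Sdc1. Over all genes that fit called 1886 of 14963 higher. In 4 of the 8, Cd79b, Jchain, Mzb1 and Sdc1, every luteolin library lay above every control library, which held for 15.9% of all genes tested.

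**Figure D1:**
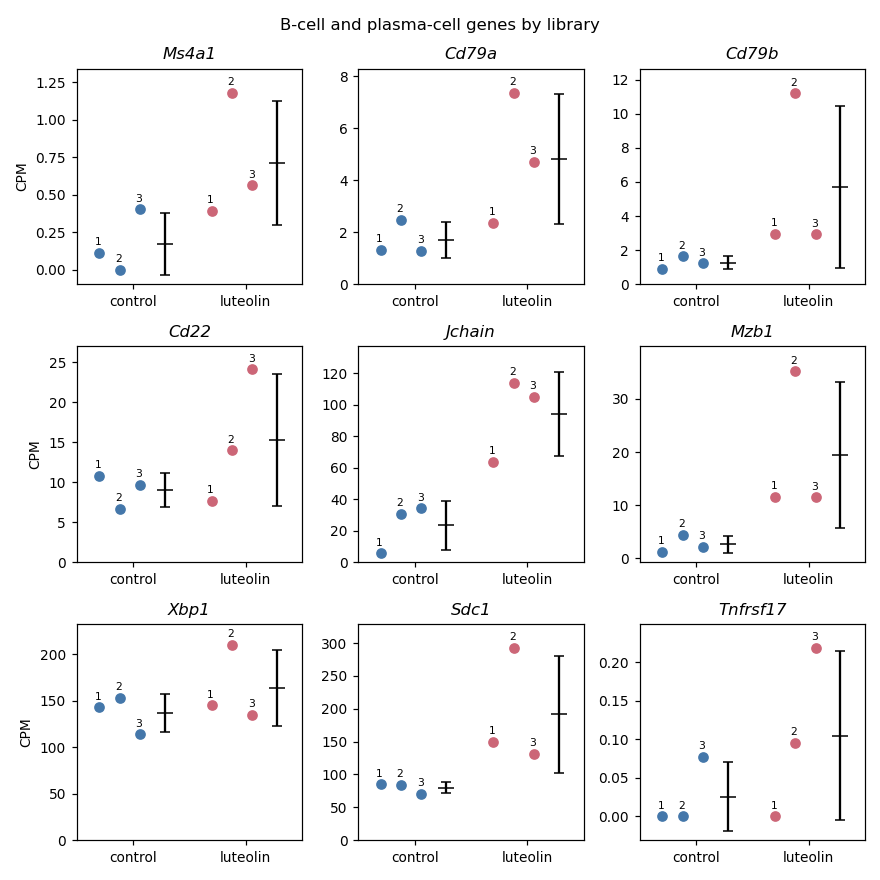
Level of each of the 9 genes in CPM (linear axis, own scale for each gene) in the 3 control and 3 luteolin libraries, with points numbered by replicate and the bar showing mean and SD (n = 3). Luteolin replicate 2 is the highest library for 7 of the genes, and luteolin replicate 3 is the highest for Cd22 and Tnfrsf17.

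The signalling chains of the B-cell receptor both rose at the study's threshold. Cd79a, the alpha chain, had 1.32, 2.49 and 1.29 CPM in the control libraries, against 2.37, 7.37 and 4.71 CPM in the luteolin libraries. The groups overlapped, since luteolin replicate 1 lay just under control replicate 2. The fitted change was 1.51 on the log2 scale, with a standard error of 0.54 and an adjusted p of 0.187 in edgeR's test. This call was lost when 1 of 4 libraries was left out, with unadjusted p values in edgeR of 0.089 without control replicate 1, 0.0894 without control replicate 3, 0.065 without luteolin replicate 2 and 0.0586 without luteolin replicate 3. In voom its log2 fold change was 0.43 (unadjusted p = 0.305). Cd79b, the beta chain, had 0.916, 1.65 and 1.23 CPM in the control libraries and 2.96, 11.2 and 2.93 CPM in the luteolin libraries. Luteolin replicate 2 was far above the other 2 libraries of its group, which were both still above all controls. Cd79b differed by 2.17 on the log2 scale, with a standard error of 0.65 and an adjusted p of 0.139 in edgeR's test, and by 1.24 without luteolin replicate 2.

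The surface genes Ms4a1 and Cd22 did not pass the threshold. Ms4a1, the CD20 gene, had 8, 0 and 26 counts in the control libraries, against 24, 99 and 36 counts in the luteolin libraries. A count of 0 allows up to 3 counts, or 12 where 1 read pair counts as 4, so this gene was near the limit of these libraries. The ranges overlapped, and the 95% interval of its log2 fold change of 2.04 ran from -0.94 to 5.02. With 1 library left out it ranged from 1.42, without control replicate 2, to 3.58, without control replicate 3. The voom fit, which weights the libraries by their quality, gave 4.80 with an adjusted p of 0.0227, the only one of the 14 alternative settings that tested the gene to call it. Cd22, the inhibitory lectin, had 10.8, 6.70 and 9.66 CPM in the control group and 7.69, 14.0 and 24.1 CPM in the luteolin group. Its highest library was luteolin replicate 3, and luteolin replicate 1 lay inside the control range. The log2 fold change of 0.75 had a 95% interval from -0.28 to 1.79, was 0.20 without luteolin replicate 3 and passed the study's threshold only without luteolin replicate 1 (1.07, unadjusted p = 0.0274 in edgeR). The annotation places an antisense gene over both Ms4a1 and Cd22, and whether the counting used strand is not given in the sources used here.

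Mzb1, the immunoglobulin chaperone, rose at the study's threshold. It had 1.20, 4.39 and 2.20 CPM in the control libraries, against 11.6, 35.2 and 11.5 CPM in the luteolin libraries, so that the lowest luteolin library was above the highest control. The mean was 19.4 ± 13.7 CPM against 2.60 ± 1.63 CPM (SD, n = 3 each), 7.49 times the control mean. This is a log2 fold change of 2.90 with a standard error of 0.66, at an adjusted p of 0.0845 in edgeR's test. Without luteolin replicate 2 it was 2.18. The gene overlaps Spata24 in GENCODE M21. Spata24 had 5.16 to 7.26 CPM in the control group and 5.52 to 6.73 CPM in the luteolin group, with overlapping ranges. Mzb1 is also expressed by plasmacytoid dendritic cells, whose marker list moved with it. Of its 11 markers, all of which passed the filter, 7 rose at the study's threshold, where 11.3% of all genes did. Without luteolin replicate 2, 6 of the 11 rose, where 7.52% of all genes did. The summed level of the 11 was 94.9 to 115 CPM in the control group and 160 to 407 CPM in the luteolin group. The 407 CPM was that of luteolin replicate 2, which also had the most skin keratinocyte marker counts. The list includes Ly6d, with a log2 fold change of 9.77, where the next highest was 2.66 for Ccr9. The part of Ly6d in the sums was not tested. Siglech, a defining marker of plasmacytoid dendritic cells, lay at 1.43 to 1.73 CPM in the control group and 3.17 to 4.40 CPM in the luteolin group. The ratio of Mzb1 to Siglech counts was 0.840 to 2.54 in the control libraries and 3.36 to 7.99 in the luteolin libraries, and the part of these cells in the Mzb1 difference was not tested.

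Jchain, the joining chain gene, was higher than Mzb1 and the 4 B-cell genes in level per exon length in both groups. It had 5.65, 30.7 and 34.1 CPM in the control libraries, against 63.7, 114 and 105 CPM in the luteolin libraries. Control replicate 1 was well under the other controls, and the groups did not overlap. The fit gave a log2 fold change of 2.01 with a standard error of 0.63, at an adjusted p of 0.151 in edgeR's test. It stayed past the study's threshold in all 16 alternative settings, between 1.49 and 2.57, and was 1.51 without control replicate 1 and 1.87 without luteolin replicate 2.

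Sdc1, which encodes CD138, had 85.2, 84.6 and 70.7 CPM in the control group and 150, 293 and 131 CPM in luteolin replicates 1, 2 and 3. The control libraries lay close together, at 80.2 ± 8.25 CPM, and the luteolin libraries spread at 191 ± 89.0 CPM (SD, n = 3 each), all above the controls. The fit gave a log2 fold change of 1.25 with a standard error of 0.32 and an adjusted p of 0.103 in edgeR's test. Without luteolin replicate 2 it was 0.82 with an unadjusted p of 0.00167 in edgeR, under the fold change of the study's threshold. Skin keratinocytes also express this gene, and their list moved with it. Its 12 markers summed to 9.34 to 11.8 CPM in the control libraries and to 428, 9990 and 23.8 CPM in luteolin replicates 1, 2 and 3, with 8 of the 12 at 0 in all controls. The part of keratinocytes in the Sdc1 difference was not tested. Of the other syndecans, which are no plasma-cell markers, Sdc2 rose at the study's threshold (log2 fold change 1.31), Sdc3 had a log2 fold change of 0.99 (adjusted p = 0.0559 in edgeR) and Sdc4 of 0.10.

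Xbp1 did not differ beyond the spread between libraries. It had 143, 153 and 114 CPM in the control libraries, against 145, 210 and 135 CPM in the luteolin libraries, and only luteolin replicate 2 lay above the control range. Its log2 fold change of 0.25 had a 95% interval from -0.26 to 0.77, was 0.05 without luteolin replicate 2 and was -0.02 in the voom fit. The value sums the unspliced message and the form that the kinase Ern1 splices into the active factor, which a count per gene cannot separate. Tnfrsf17, the BCMA gene, was close to undetected. It had 0, 0 and 5 counts in the control libraries and 0, 8 and 14 counts in the luteolin libraries, so its summed count was 5 against 22. With no filter on low counts, edgeR gave it an unadjusted p of 0.39.

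**Figure D2:**
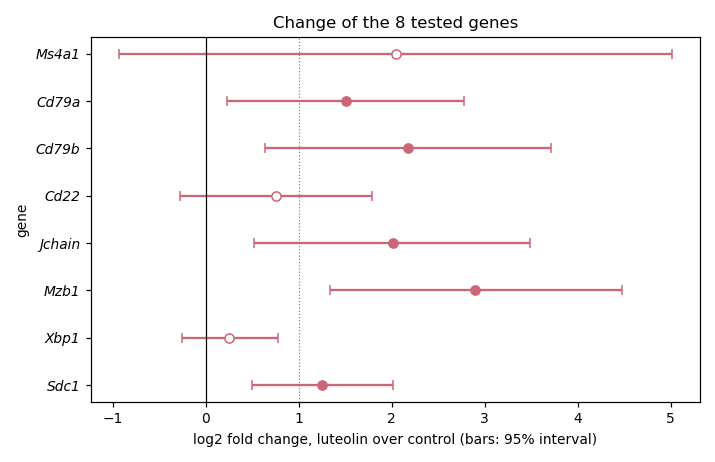
Log2 fold change of luteolin over control for the 8 tested genes, with 95% intervals from edgeR's quasi-likelihood fit. Filled points are the 5 genes past the study's threshold, whose intervals exclude 0, and the dotted line marks a 2-fold change (log2 of 1).

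Ratios of counts within a library do not depend on its total and were used to compare the genes with each other. The ratio of Mzb1 to Cd79a was 0.913, 1.76 and 1.71 in the control libraries, against 4.90, 4.78 and 2.45 in the luteolin libraries. Every luteolin library was above every control, with a mean log2 difference of 1.46 (exact two-sided permutation test, p = 0.1, the smallest that 3 libraries against 3 allow). For Jchain to Cd79a the ratios were 4.29, 12.4 and 26.5 in the control group and 26.9, 15.4 and 22.4 in the luteolin group, which overlapped (exact permutation p = 0.3). Against Cd3e, a chain of the T-cell receptor complex, Cd79a had ratios of 0.652, 1.59 and 0.830 in the control group and 0.425, 0.618 and 1.07 in the luteolin group. These overlapped with a mean log2 difference of -0.54 (exact permutation p = 0.4), so Cd79a was not higher relative to Cd3e. The Mzb1 to Cd3e ratio, 0.596 to 2.81 against 2.09 to 2.95, overlapped as well (exact permutation p = 0.3). Sdc1 to Mzb1 moved the other way, from 70.9, 19.3 and 32.1 in the control libraries to 12.9, 8.33 and 11.3 in the luteolin libraries (exact permutation p = 0.1). In all, 10 such ratios were computed, and 3 of them did not overlap between the groups (adjusted p = 0.333 each over the 10 exact permutation tests), those of Mzb1 to Cd79a, Mzb1 to Siglech and Sdc1 to Mzb1.

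**Figure D3:**
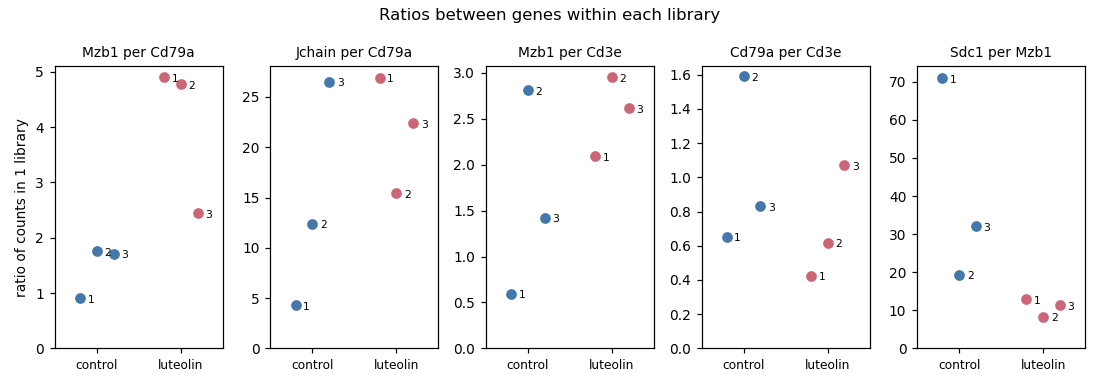
Ratio of the counts of 2 genes within each library (linear axes from 0) for the control and luteolin libraries, with points numbered by replicate. Mzb1 per Cd79a is 0.913 to 1.76 in the control libraries and 2.45 to 4.90 in the luteolin libraries, while Cd79a per Cd3e overlaps between the groups.

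Divided by exon length, the genes kept a wide range of levels. In the control group the mean per kilobase of exon was 42.1 CPM for Xbp1, 21.1 CPM for Sdc1, 9.33 CPM for Jchain, 2.14 CPM for Mzb1 and 1.80 CPM for Cd22. Below these were Cd79a at 1.16 CPM, Cd79b at 0.884 CPM, Tnfrsf17 at 0.0317 CPM and Ms4a1 at 0.0279 CPM per kilobase. In the luteolin group Mzb1 stood at 16.0 CPM, Jchain at 37.5 CPM and Cd79b at 3.99 CPM per kilobase, with Xbp1 and Sdc1 at 50.3 and 50.2 CPM. Neighbours such as Cd79a and Cd79b, or Mzb1 and Cd22 in the control group, lay within the spread between libraries of each other. Exon lengths are those of GENCODE M21.

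The other genes of the pathway were read from lists of known function, beside the 11.3% of all genes that rose at the study's threshold. The B-cell identity list has 20 genes, of which 16 passed the filter, 6 rose at the study's threshold and 0 fell, and its median log2 fold change was 1.15 where that of all genes was -0.01. Pou2af1, the coactivator of octamer-binding factors in B cells, rose from 0.973, 1.24 and 1.38 CPM to 5.94, 10.0 and 6.01 CPM (log2 fold change 2.61, adjusted p = 0.0393 in edgeR). Cd72, a coreceptor of B cells that macrophages can also carry, rose at the study's threshold with a log2 fold change of 1.87 (adjusted p = 0.0914 in edgeR), or 1.26 without luteolin replicate 2. Vpreb3, a gene of B-cell development, had 0 counts in each control library and 16, 23 and 12 counts in the luteolin libraries, at least 5.33-fold higher against a limit of 3 counts per library and at least 1.33-fold against 12. Ralgps2, with a log2 fold change of 0.10, did not pass. Pax5, which fixes B-cell identity, had 12 to 13 counts in the control libraries and 0, 92 and 34 counts in luteolin replicates 1, 2 and 3. Without luteolin replicate 2, 4 of the 16 rose, where 7.52% of all genes did.

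Of the 20 genes of B-cell receptor signalling, 8 rose at the study's threshold, 0 fell, and 3 reached an adjusted p under 0.05 in edgeR. Over all genes 11.3% rose at the study's threshold and 1.34% were higher at the adjusted one. Syk, the kinase that the Cd79 tails recruit, had 41.6, 32.8 and 36.5 CPM in the control group and 95.4, 149 and 86.0 CPM in the luteolin group (log2 fold change 1.57, adjusted p = 0.0403). Vav1, an exchange factor downstream of it, had the same log2 fold change of 1.57 (adjusted p = 0.0437 in edgeR), and Inpp5d, a phosphatase that limits the signal, had 1.19. Ptpn6, a phosphatase that Cd22 recruits, had a log2 fold change of 0.71, and the adaptor Bcl10 of 0.13, both short of the threshold. The list median was 0.74, and without luteolin replicate 2 the number that rose was 4, where 7.52% of all genes did. T cells and myeloid cells also use most of these genes. The 10 T-cell markers, of which 9 were in the table and passed the filter, all rose at the study's threshold with and without luteolin replicate 2, and their sum was 15.4 to 17.5 CPM in the control libraries and 53.4 to 99.8 CPM in the luteolin libraries. Among 10 macrophage markers 9 passed the filter and 2 rose at that threshold, Cd68 and Cd163. All 9 had a log2 fold change above 0, and 8 had an unadjusted p under 0.05 in edgeR, as did 20.5% of all genes. The list summed to 996 to 1140 CPM in the control libraries and 1630 to 2310 CPM in the luteolin libraries.

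The survival factors of B cells and plasma cells were looked at as ligands and receptors. Tnfsf13b, the ligand BAFF, rose at the study's threshold from 0.873, 0.988 and 1.01 CPM to 2.25, 3.40 and 3.46 CPM (log2 fold change 1.67, adjusted p = 0.0957 in edgeR), with no overlap. The related ligand gene Tnfsf13, or APRIL, had 0.961 to 2.28 CPM in the control group and 1.81 to 1.83 CPM in the luteolin group. Of the receptors, Tnfrsf13b (TACI) had a log2 fold change of 0.95 (adjusted p = 0.167 in edgeR), just under the fold change threshold and with no overlap between the groups. Tnfrsf13c, the BAFF receptor, had 17, 39 and 8 counts in the control libraries and 29, 110 and 55 counts in the luteolin libraries, which overlapped. Of these 4 genes 1 rose, where 11.3% of all genes did. With control replicate 2, control replicate 3 or luteolin replicate 1 left out, 2 of the 4 rose. In those fits 8.38% to 11.2% of all genes did.

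In the plasma-cell programme, 9 of 20 genes rose at the study's threshold and 0 fell, where 11.3% of all genes rose and 1.52% fell. The median log2 fold change of the list was 0.62. Of the 20, 16 had a log2 fold change above 0 and 4 below it. The lowest was Cd93 at -0.62 (unadjusted p = 0.0346 and adjusted p = 0.206 in edgeR). Prdm1, the repressor Blimp-1 that commits cells to secretion and is also used by T cells and macrophages, had 6.32, 8.25 and 8.82 CPM in the control group and 32.5, 28.7 and 18.1 CPM in the luteolin group (log2 fold change 1.76, adjusted p = 0.0437 in edgeR). Tent5c, a poly(A) polymerase of secretory cells, rose from 4.38, 7.24 and 5.58 CPM to 22.8, 19.3 and 29.2 CPM (log2 fold change 2.05, adjusted p = 0.0335). For neither gene was luteolin replicate 2 the highest library, and without it the log2 fold changes were 1.72 for Prdm1 and 2.20 for Tent5c. Slamf7, a surface receptor of plasma cells and other leukocytes, had a log2 fold change of 1.77. Edem1 and Ssr4, which serve protein folding and export, had log2 fold changes of 0.26 and -0.05. Without luteolin replicate 2, 6 of the 20 rose, where 7.52% of all genes did. With any control library or luteolin replicate 1 left out, 0 of all genes had an adjusted p under 0.05 in edgeR, so the adjusted calls of Pou2af1, Syk, Vav1, Inpp5d, Prdm1, Tent5c and, of the germinal centre list, Basp1 were lost too.

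In the unfolded protein response, in which Xbp1 acts, 0 of 24 genes were called at the study's threshold in edgeR. DESeq2 and voom also called 0 of them higher at that threshold. In edgeR 2 of the 24 had an unadjusted p under 0.05, as did 20.5% of all genes tested. These were Atf4 and Ddit3, of the arm that runs through Eif2ak3, with log2 fold changes of 0.60 and 0.61. In voom both had an adjusted p under 0.05, at 0.0411 for Atf4 (log2 fold change 0.49) and 0.0252 for Ddit3 (0.65). At that level voom called 1886 of 14963 genes higher and 1311 lower. Hspa5, the main chaperone of the reticulum, had 925, 1490 and 1930 CPM in the control group and 1580, 825 and 1670 CPM in the luteolin group, and Hsp90b1 had a log2 fold change of -0.14. The median of the list was 0.11. The directions of Hspa5 and Hsp90b1 turned when control replicate 3 or luteolin replicate 2 was left out.

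Germinal centres, where B cells mutate their receptors, were read from 12 genes, of which 11 passed the filter. At the study's threshold 5 of the 11 rose and 0 fell, where 11.3% of all genes rose. The 5 were Bcl6, Fas, Cxcr4, Il21r and Basp1. Of these, Basp1 had a log2 fold change of 1.30 (adjusted p = 0.0493 in edgeR) and the cytokine receptor Il21r one of 1.80. T cells and myeloid cells use several of these genes as well. Without luteolin replicate 2, 3 of the 11 rose, where 7.52% of all genes did. In voom 3 of the 11 rose, where 11.7% of all genes did. S1pr2, which confines B cells to the centre, had a log2 fold change of -0.29 and did not pass. Of 21 immunoglobulin chain genes in a list, 1 symbol was in the table, Igll1, with 0 counts in 5 of the 6 libraries. The antibody chains themselves were not analysed here. Lymph node stroma markers, of which 7 of 12 passed the filter, had a sum of 5.27 to 9.93 CPM in the control libraries and 59.3, 134 and 34.1 CPM in luteolin replicates 1, 2 and 3, and 5 of the 7, Cxcl13, Ccl21a, Grem1, Fut7 and Tnfsf11, rose at the study's threshold. Cxcl13, the chemokine that draws B cells into follicles, had 0.529, 3.55 and 2.90 CPM in the control group and 16.7, 89.6 and 16.5 CPM in the luteolin group (log2 fold change 4.14, and 2.86 without luteolin replicate 2). Of this list 4 of the 7 rose without that library, where 7.52% of all genes did. Lyve1 of the same list had a log2 fold change of 1.17 and did not pass. The part of lymph node tissue in these differences was not tested.

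**Figure D4:**
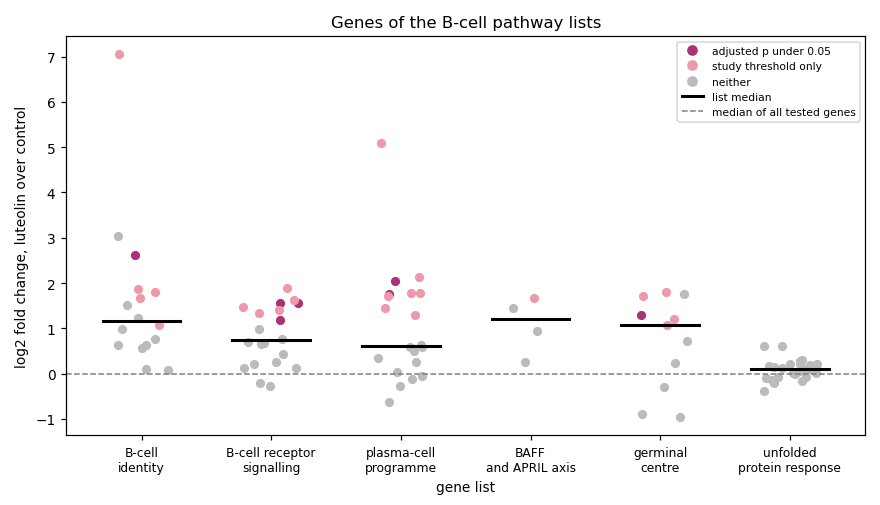
Log2 fold change of luteolin over control for each tested gene of 6 lists, coloured by the threshold it passed, with black bars for the list medians and a dashed line for the median of all tested genes (-0.01). The unfolded protein response genes lie around 0 with a median of 0.11, and Vpreb3, the highest point, had 0 counts in all controls, so its fitted value is no bound.

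Over the 6 libraries, the genes whose log2 CPM was most like that of Cd79a were Arhgef39, Gde1 and Hdgf, with Pearson correlations of 0.994, 0.990 and 0.987. For Jchain they were Lipo3, Stk26 and Slamf7, with 0.996, 0.996 and 0.994. These are the highest values among the 14963 tested genes, over only 6 libraries. A correlation over 0.95 was reached by 34 of these genes for Cd79a and by 77 for Jchain. The points share the group difference and the library totals.

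**Figure D5:**
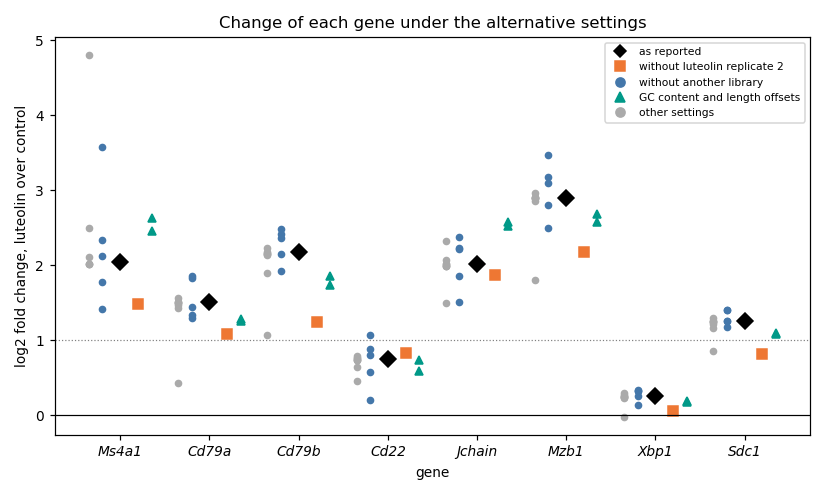
Log2 fold change of each tested gene in the reported fit (diamond), without luteolin replicate 2 (square), without each other library, with offsets for GC content and gene length (triangles) and under the other settings. Mzb1, Jchain and Cd79b stay above the dotted line of a 2-fold change in each setting shown, and the square is the lowest of the leave-one-out values for Cd79a, Cd79b, Mzb1, Xbp1 and Sdc1.

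The alternatives ordered the called genes by how well their calls held. Mzb1, Cd79b and Jchain passed the study's threshold in all 16 alternative settings, Sdc1 in 14 and Cd79a in 11. The 2 settings in which Sdc1 fell short were voom, with a log2 fold change of 0.85, and the fit without luteolin replicate 2. In voom, Mzb1 had a log2 fold change of 1.80 and Cd79b of 1.07. Without luteolin replicate 2, 3 of the 8 genes rose at the study's threshold, Mzb1, Jchain and Cd79b, where 7.52% of all genes did. Offsets for GC content and gene length left 5 genes past the study's threshold, where 11.7% of all genes were higher. Of the 5, 2 had an adjusted p under 0.05, Mzb1 (adjusted p = 0.0445 in edgeR) and Sdc1 (0.028). Over all genes 721 of 14635 were higher at that adjusted level with the offsets. Over all alternative settings the adjusted p of Mzb1 ranged from 5.9e-05 to 0.243 and that of Sdc1 from 0.0037 to 0.328.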

How the data were processed

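Both groups of H22 tumours gave 3 RNA-seq libraries, and 0 columns were left out. The table that the authors deposited holds whole numbers for each gene symbol and library, not scaled between libraries. These deposited values were read as estimated counts, since 44.8% of the values from 1 to 40 are multiples of 4. The submitters' processing notes name bcl2fastq 2.0, HISAT2, StringTie, DESeq2 and the builds rn6 and mm39, with no role. The counting tool and annotation are not given in the sources used here. Counts were compared in R 4.3.3 with edgeR 4.0.16 (TMM, filterByExpr, quasi-likelihood test, two-sided, no covariates, Benjamini-Hochberg adjustment over 14963 genes). Genes were called at an adjusted p under 0.05 and at the study's threshold (unadjusted p under 0.05, absolute log2 fold change over 1). Log2 CPM has a prior count of 2. Permutation tests were exact, on log2 values (CPM plus 0.1, or ratios). Alternatives used DESeq2 1.42.0, limma 3.58.1 (voom with sample quality weights), other normalizations and filters, the replicate number as a block, values divided by 4 and each library left out. Offsets for GC content and length (splines with 4 and 3 degrees of freedom) were chosen after the data were seen. On simulated data with 200 changed genes (log2 fold change 2), edgeR recovered 93% of 199 tested at the study's threshold and 55.8% at the adjusted one. It called 304 and 12 unchanged genes among 14750. The changed genes were drawn only from those above a low mean CPM. These shares therefore need not hold for genes as low as Ms4a1 and Tnfrsf17 or for smaller changes. The 95% intervals of log2 fold changes come from the edgeR fit and include the spread between libraries, while limits set from counts of 0 cover counting error only. Exon lengths and overlaps come from GENCODE M21 (GRCm38), which matched 21053 of 21720 symbols, and promoters from RefSeq.

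Members and lists were chosen with earlier results of these data known, so their counts are descriptions. Genes named are the 9 members, the 4 genes of the BAFF and APRIL axis, the 2 with the smallest p and the 2 with the highest mean in each pathway list, the 2 with the highest mean in each cell type list, and the 3 most like Cd79a and Jchain. Krt14, Krt10, Irf8, Tcf4, Lck, Cd4, C1qa and C1qc, which the rule also selects, are covered by the counts of their lists. Others, among them Pax5, Inpp5d, Cd3e, Siglech and Spata24, were chosen after their values were seen. Results for some genes are not reported here.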

Additional observations from a re-analysis of the deposited data

How the results depend on the processing

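At an adjusted p under 0.05, where 200 genes were higher and 28 lower, DESeq2 gave 1543 and 415, voom 1886 and 1311, a minimum of 10 counts in every library 345 and 47, values divided by 4 327 and 46, and the GC content and length offsets 721 and 276. When 1 library was left out they ranged from 0 to 276 and from 0 to 36. At the study's threshold, 227 genes were lower, against 498 in voom and 140 to 305 with a library left out. Of the 9 genes, 5 were higher at the study's threshold and 3 to 6 with a library left out, where 7.52% to 13.6% of all genes were. At an adjusted p under 0.05, 0 of the 9 were higher, against 4 in DESeq2 and 4 in voom. With the offsets 2 were, and 2 with the offsets and the replicate block. The deviations of same-numbered libraries of the groups correlated at -0.20, -0.09 and 0.06 over genes, and those of differently numbered libraries at -0.12 to 0.20. With 3 libraries per group these correlations are tied to each other. They therefore cannot tell whether the numbers in the labels pair the libraries. The replicate block alone gave 34 genes higher and 1 lower and changed no call of the 9 genes at the study's threshold. In voom the log2 fold changes of Xbp1 (-0.02), Ralgps2 (-0.28), Hspa5 (0.09) and Hsp90b1 (0.08) changed sign. So did those of Hsp90b1 with the offsets (0.02, and 0.05 with the block), and, with a library left out, those of Ralgps2 (-0.06 to 0.24), Ssr4 (-0.24 to 0.02), Hspa5 (-0.34 to 0.18) and Hsp90b1 (-0.45 to 0.25). Each of these genes lay close to 0, and the cause was not tested. Of 126 values of the 8 tested genes under the alternatives, 116 kept their direction and their side of the study's threshold, 7 fell short of it, 2 passed it and 1 changed sign. Depth limits Ms4a1 and Tnfrsf17, which had up to 99 and 14 counts.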
